A study of Psophocarpus tetragonolobus with 12 samples.

Results

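The genes described here are 5 members of the albumin side of the winged bean seed storage protein set. They are the putative albumin Psote06G0099600, the putative 2S albumin genes Psote07G0197200 and Psote04G0341500, and the albumin genes Psote04G0279400 and Psote06G0196400. They were picked by gene ID from the 26 genes that the study lists as albumin (18 genes) or putative 2S albumin (8 genes), out of 30392 genes in the deposited table. Their stage values were known when they were picked, so their levels and changes between stages are given as a description and without a test.

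Winged bean (Psophocarpus tetragonolobus) is a tropical legume grown for its pods, seeds and tubers. The samples are pods of the line FP15, which has purple pods and was the mother of the study's cross, collected 15, 30, 37 and 45 days after anthesis and called by these days here. Each stage has 3 libraries from different plants, 12 in all, from polyadenylated RNA prepared without strand information; the plants were of one genotype, grown in one chamber without any treatment. The sample labels name pods, whereas the study's methods name both pod and seed tissue. The table analysed here holds 1 value per gene and stage, in FPKM (fragment counts scaled to gene length and to mapped fragments) as whole numbers, and the sources used here do not give the way in which the authors merged 3 libraries into 1 value. The spread between plants is therefore unknown for every difference below. Ranges in parentheses are the limits that rounding by 0.5 FPKM leaves, and the values themselves carry no depth. A listed 0 stands for any level below 0.5 FPKM. In bulk pods, fewer cells of a type and less RNA per cell cannot be told apart. Coordinates refer to the genome that the study assembled from its green-podded paternal line Ma3, not from FP15.

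Albumins are water-soluble proteins of legume seeds, and many of them serve as storage proteins. The 2S albumins are small, sulphur-rich proteins held together by disulphide bridges. They share their cysteine pattern and fold with non-specific lipid-transfer proteins, which bind lipids at the cell surface and in the cell wall, and with inhibitors of digestive enzymes. A match to this superfamily alone thus does not separate a storage albumin from a lipid-transfer protein. PA2 of pea is an albumin of another kind, with a haemopexin-like fold, and PA1 of pea is a small cysteine-rich albumin that is toxic to some insects.

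Among the 5 genes, Psote06G0099600 had by far the highest level, and the other 4 exchanged places between Day 15 and Day 45. The Day 15 order was Psote06G0099600 (382 FPKM), Psote06G0196400 (34 FPKM) and Psote04G0341500 (8 FPKM), with both remaining genes listed at 0. The Day 45 order was Psote06G0099600 (786 FPKM), Psote07G0197200 (80 FPKM), Psote04G0279400 (14 FPKM), Psote06G0196400 (7 FPKM) and Psote04G0341500 (2 FPKM). Of the neighbours in these orders, the 2 genes listed at 0 at Day 15 could not be ranked. The same holds for Psote06G0196400 and Psote04G0341500 at Day 30, at 4 and 3 FPKM, whose rounding limits meet. FPKM is scaled to transcript length, so these levels can be compared between genes.

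**Figure D1:**
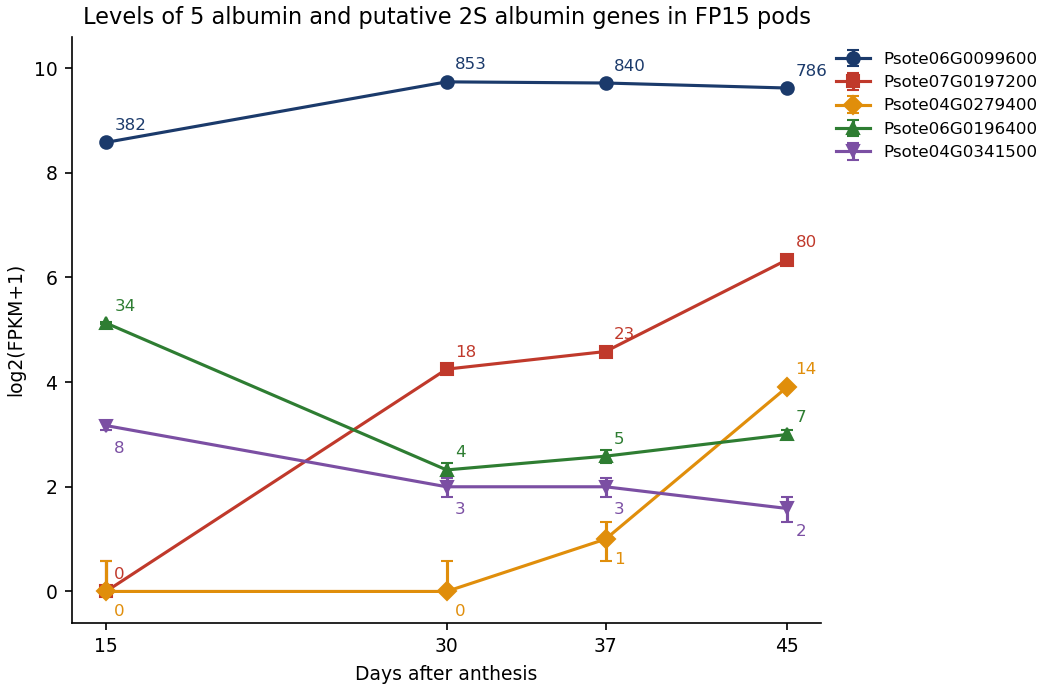
Level of each of the 5 genes as log2(FPKM+1) against days after anthesis in FP15 pods, with the FPKM value printed at each point. Each point is the authors' single value per stage and the bars are the limits of rounding to whole numbers. Psote06G0099600 stays on top throughout, and Psote07G0197200 and Psote04G0279400 pass the other 2 genes by Day 45.

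A gene was counted as measured if any stage had 1 FPKM or more (22459 genes), and as higher or lower where log2(FPKM+1) differed by at least 1, which is 2-fold for well-expressed genes. All 5 genes were measured. Between Day 15 and Day 45, 3 of them were higher and 2 lower by this threshold, whereas 14.3% of all measured genes were higher and 19.4% lower. The choice of the 5 genes used these changes, so that nothing is read from their count. Between Day 15 and Day 30, 2 were higher and 2 lower (9.47% and 13.7% of all measured genes). From Day 30 to Day 37, 1 was higher and 0 were lower (3.47% and 3.69%), and from Day 37 to Day 45, 2 were higher and 0 were lower (3.53% and 5.13%). From Day 30 to Day 45, 2 were higher and 0 were lower (5.82% and 8.12%). The median change over the measured genes was 0 in each of these comparisons.

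**Figure D2:**
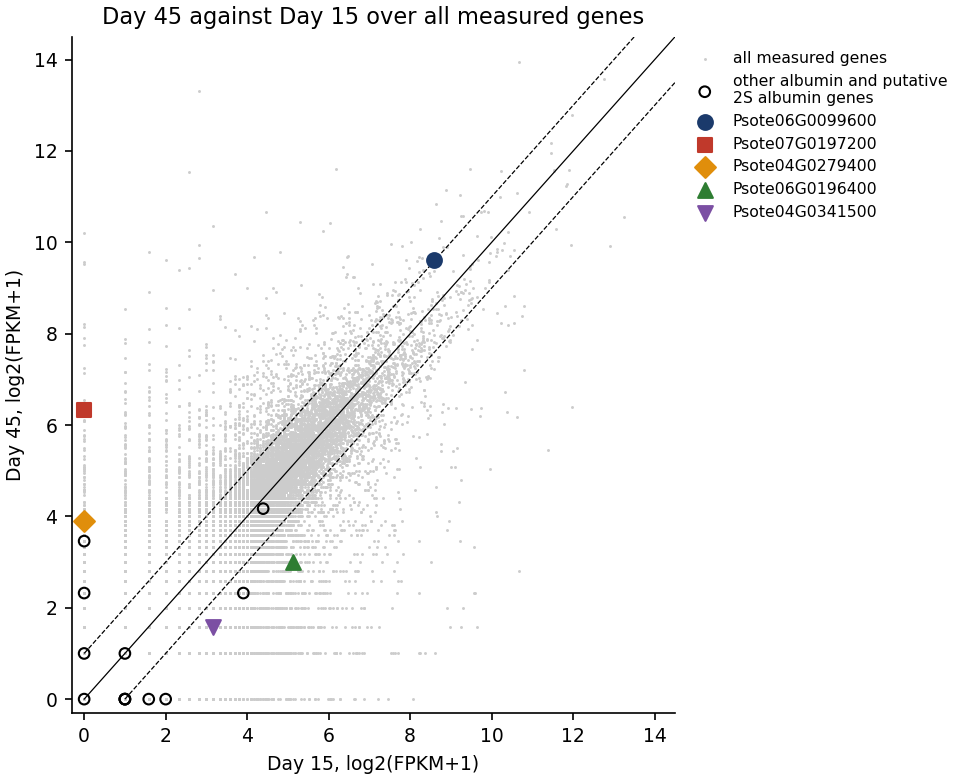
Level at Day 45 against level at Day 15, both as log2(FPKM+1), for the 22459 measured genes (grey), the other measured albumin and putative 2S albumin genes (open circles) and the 5 genes (coloured symbols). The solid line marks equal levels and the dashed lines a difference of 1. Psote06G0099600 lies on the upper dashed line, with a change of 1.04, and Psote07G0197200 and Psote04G0279400 lie on the left edge because they were listed at 0 at Day 15.

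Psote06G0099600 (Chr06.2, 886294 to 892378) is matched by the study to a soybean gene and to AT5G62065 of Arabidopsis, and is assigned to the 2S albumin and lipid-transfer superfamily. Its levels at the 4 stages in turn were 382, 853, 840 and 786 FPKM. The whole of its increase fell before Day 30, when the ratio to Day 15 was 2.23 (2.23 to 2.24 within rounding). Its level then decreased by 1.52% to Day 37 and decreased by 6.43% from there to Day 45, both more than rounding gives. The last step depends on scaling, at -0.096 in log2(FPKM+1) as deposited, -0.019 with equal sums and 0.0038 after quantile normalization. Among all genes of the table its rank was 175 at Day 15 and 68 at each of the later stages, that is percentile 99.2 and then 99.7 of the measured genes. Of the summed FPKM of all genes it held 0.0539% at Day 15 and 0.104 to 0.110% later. An increase to Day 30 of this size or more was found in 1326 measured genes, this one included. The change over the whole period, 1.04 in log2(FPKM+1), passed the threshold narrowly and became 0.95 once the stages were scaled to equal sums.

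Psote07G0197200 (Chr07.2, 16634108 to 16638146) lies in qSSP-5, an interval for seed protein content, and is listed as a putative 2S albumin with a soybean match only. Not detected above rounding at first (listed at 0), it had 18, 23 and 80 FPKM at the following 3 stages. Its level was thus built up in unequal steps, with 18 FPKM added by Day 30, 5 FPKM by Day 37 and 57 FPKM in the last interval. The ratio of Day 45 to Day 37 was 3.48 (3.38 to 3.58 within rounding). An increase of this size or more in the last interval was found in 64 measured genes, this one included. Of 1143 measured genes listed at 0 at Day 15, 27 had at least 18 FPKM by Day 30 and 11 had at least 80 FPKM by Day 45, this gene included in both. At Day 45 it was at percentile 92.4 of the measured genes and was the second most abundant of the 26 albumin and putative 2S albumin genes.

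Psote04G0279400 (Chr04.3, 5215419 to 5221423) is listed among the albumin genes in the block matched to PA2 of pea. Both earlier stages list it at 0, Day 37 lists 1 FPKM and Day 45 lists 14 FPKM. Of the 14 FPKM, 13 FPKM were added after Day 37, and 11 measured genes, this one included, had a change as large as its 2.91 in log2(FPKM+1) in that interval. The step from a listed 0 at Day 30 to 1 FPKM at Day 37 reached the threshold exactly, and rounding allows it to be nil. Even at Day 45 the gene was only at percentile 54.9 of the measured genes. Psote07G0197200 and Psote04G0279400 were both higher at the end of the last interval than at its start, but at Day 30 the former was at 18 FPKM and the latter listed at 0.

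Psote06G0196400 (Chr06.4, 6501702 to 6502426) is matched to a soybean gene and to AT2G45180 of Arabidopsis, and is assigned to the same superfamily. Its levels were 34, 4, 5 and 7 FPKM in stage order. The decline was complete by Day 30, when the ratio to Day 15 was 0.118 (0.101 to 0.134 within rounding), and 225 measured genes, this one included, had a decline as large in log2(FPKM+1). From Day 30 to Day 45 the level went back up by 3 FPKM, a ratio of 1.75 (1.44 to 2.14 within rounding) that is larger than rounding but stays below the threshold. The gene went from percentile 80.3 of the measured genes at Day 15 to 27.2 at Day 30 and 38.1 at Day 45. The gene model just before it, Psote06G0196300, is an albumin gene of the same superfamily and was listed at 0 until Day 37 and then at 1 FPKM.

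Psote04G0341500 (Chr04.3, 19797179 to 19798292) is a putative 2S albumin gene of the same superfamily. Its levels in stage order were 8, 3, 3 and 2 FPKM. Most of this decline, 5 of 6 FPKM, fell before Day 30, and the last step from 3 to 2 FPKM is within rounding. The gene model is not alone at its position. Psote04G0341600, which the study's tables do not name, runs from 19797391 to 19798161, wholly inside it, and the 771 shared bases are 69.2% of the span of Psote04G0341500. This inner gene had 437, 91, 86 and 77 FPKM. Its level was 54.6 (51.4 to 58.3 within rounding), 30.3 (25.9 to 36.6), 28.7 (24.4 to 34.6) and 38.5 (30.6 to 51.7) times that of Psote04G0341500 at the 4 stages. The limits of these ratios overlap at all stages after Day 15. Both genes had their highest level at Day 15. The libraries carry no strand information, so reads from the shared stretch cannot be assigned to either gene by strand, and the value of Psote04G0341500 is uncertain for that reason.

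**Figure D3:**
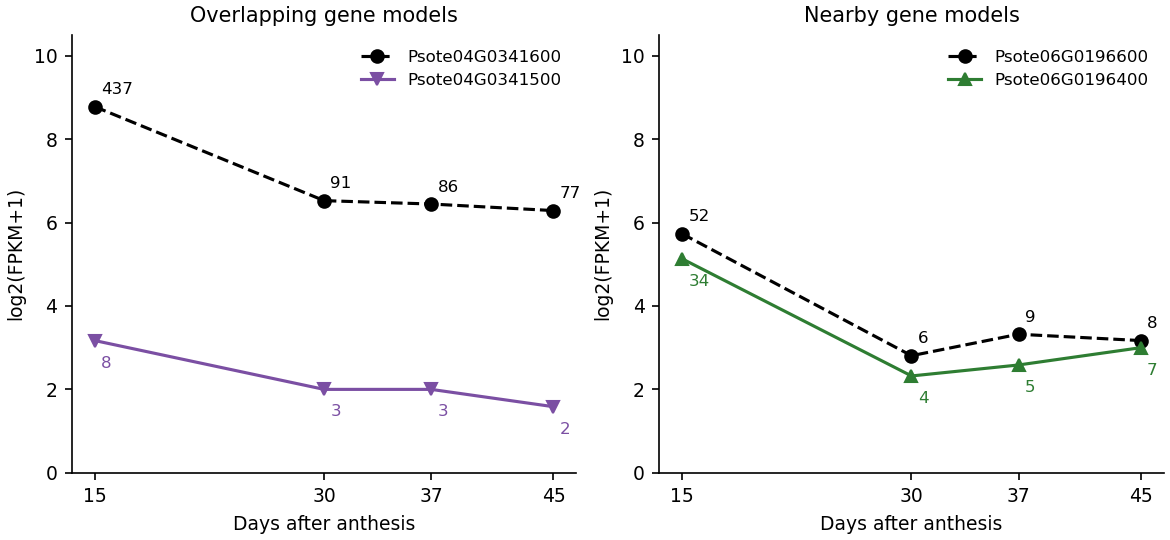
Levels as log2(FPKM+1) against days after anthesis, with FPKM printed at each point, for Psote04G0341500 beside Psote04G0341600 inside its span (left) and for Psote06G0196400 beside the second gene model after it, Psote06G0196600 (right). In both panels the pair has its highest values at Day 15, 8 and 437 FPKM on the left and 34 and 52 FPKM on the right.

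Measured genes next to the 5 members included both higher and lower ones. Over the 5 gene models on each side, the measured neighbours that were higher and lower between Day 15 and Day 45 numbered 2 and 2 of 9 for Psote06G0099600, 1 and 2 of 5 for Psote07G0197200, 1 and 0 of 1 for Psote04G0279400, 1 and 1 of 2 for Psote06G0196400 and 2 and 4 of 9 for Psote04G0341500. Of all measured genes, 14.3% were higher and 19.4% lower. Some of these neighbour calls rest on values of 0 and 1 FPKM. Among them is the only higher neighbour of Psote06G0196400, Psote06G0196300. The pair of measured neighbours of Psote06G0196400 held a close companion. Psote06G0196600, which starts at 6533596, had 52, 6, 9 and 8 FPKM in stage order. It was at 1.53 (1.49 to 1.57 within rounding) times the level of Psote06G0196400 at Day 15 and 1.14 (1 to 1.31) times at Day 45. Psote04G0279500, the only measured neighbour of Psote04G0279400, was listed at 0 in both earlier stages and then had 2 and 5 FPKM. Near Psote07G0197200, Psote07G0196900 went from a listed 0 to 5 FPKM over the whole period. Other neighbours went against their member. Psote07G0197300, the next gene model after Psote07G0197200, went from 16 to 1 FPKM. Psote04G0341900, near Psote04G0341500, went from 57 to 337 FPKM. The study's tables do not name Psote06G0196600, Psote04G0279500 or Psote07G0196900.

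The 12 genes of the PA2 block lie on Chr04.3 between 5044279 and 8707696, and 7 of them were measured. Between Day 15 and Day 45, 2 were higher, 5 were lower and the other 5 were listed at 0 in all stages (14.3% and 19.4% of all measured genes were higher and lower). Psote04G0279400, the second gene in chromosome order, and Psote04G0281900, the fifth, were the higher ones. Psote04G0281900 (6890856 to 6891748) had 2, 26 and 10 FPKM after a listed 0 at Day 15. It thus peaked at Day 37, before Psote04G0279400 had passed 1 FPKM, and it was at less than its Day 37 level when Psote04G0279400 reached 14 FPKM. The 5 lower genes were the last in chromosome order, from Psote04G0284200 to Psote04G0288400. They were at 1 to 3 FPKM at Day 15 and at 1 to 4 FPKM at Day 30, and all 5 were listed at 0 at Day 37 and Day 45. Of these 5, 3 changed by only 1 listed FPKM between Day 15 and Day 45, which is within rounding. Similar genes of one family can share reads, which could shift values from one to another.

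**Figure D4:**
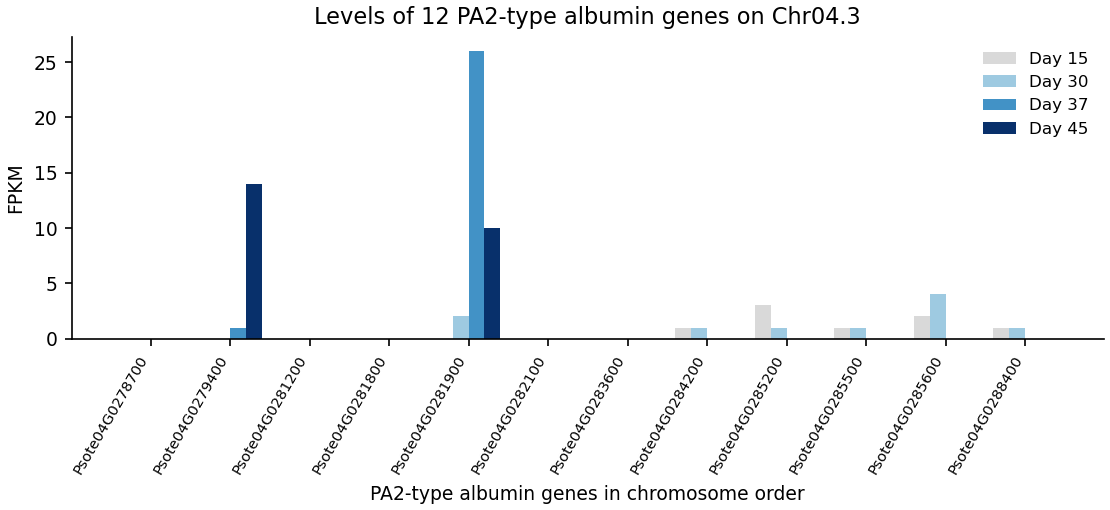
FPKM of the 12 PA2-type albumin genes on Chr04.3, in chromosome order, with 1 bar for each of the 4 stages. Bars for Day 37 and Day 45 appear only at Psote04G0279400 and Psote04G0281900, with 26 FPKM as the highest value, and the 5 genes at the right end show bars only for Day 15 and Day 30.

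Summed over the 26 albumin and putative 2S albumin genes, the level was 467, 909, 926 and 926 FPKM in stage order. Psote06G0099600 made up 81.8% of this sum in the first stage (79.6 to 82.7% within rounding), then 93.8% and 90.7%, and 84.9% in the last (83.7 to 85.4%). All 5 members together made up between 90.8% and 96.6%. The level of the class was therefore set almost wholly by 1 gene, and its share was highest at Day 30.

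Without Psote06G0099600, the other 25 genes summed to 85, 56, 86 and 140 FPKM. The gene with the largest part of this remainder differed between stages. At Day 15 it was Psote06G0196400, with 40% (34.7 to 42.6% within rounding), which had 5% at Day 45. At Day 30 it was Psote07G0197200 with 32.1%. At Day 37 it was Psote04G0281900 with 30.2% (26.2 to 31.9%), next to Psote07G0197200 with 26.7% (23.1 to 28.3%), and the limits of these 2 overlap. At Day 45 it was Psote07G0197200 again, with 57.1% (52.5 to 59.2%), and Psote04G0279400 held 10%. Psote03G0217000, matched to the Arabidopsis gene LTPG2 of an anchored lipid-transfer protein, stood at 20, 13, 13 and 17 FPKM, and the PA1-type gene Psote01G0210100 stood at 14, 6, 13 and 4 FPKM.

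**Figure D5:**
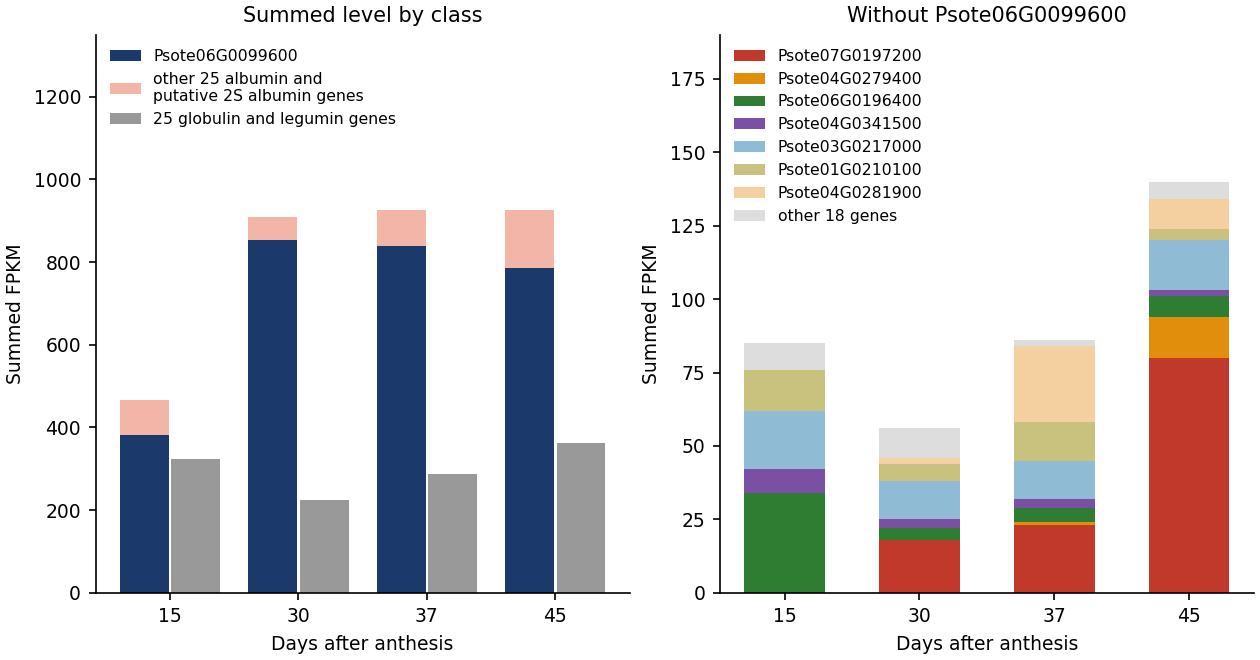
Summed FPKM by stage. Left, Psote06G0099600 with the other 25 albumin and putative 2S albumin genes stacked on it, beside the 25 globulin and legumin genes; right, the same 25 albumin-side genes alone, divided by gene. The left panel shows Psote06G0099600 taking 382 of 467 FPKM at Day 15 and 786 of 926 FPKM at Day 45, and the right panel shows Psote07G0197200 taking 80 of 140 FPKM at Day 45.

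Globulins and legumins are the other main class of storage proteins, and their 25 listed genes summed to 324, 225, 288 and 362 FPKM at the 4 stages. Some of these genes are homologues of seed maturation proteins. One of them, Psote05G0226200, had 31, 13, 51 and 114 FPKM in stage order and was the highest listed gene at Day 37 and Day 45. Others were Psote06G0400900, at 26, 47, 48 and 42 FPKM, and Psote04G0062600, at 0, 0, 7 and 32 FPKM. The 11S globulin gene Psote03G0078700 was highest at Day 15 and went from 148 to 12 FPKM by Day 45. The ratio of the albumin sum to the globulin sum was 1.44 (1.37 to 1.51 within rounding) at the first stage, 4.04 (3.80 to 4.22) and 3.22 (3.07 to 3.34) at the next ones and 2.56 (2.46 to 2.65) at the last. Psote06G0099600 alone stood at 1.18 to 3.79 times the summed globulins. Without it the ratios were 0.262, 0.249, 0.299 and 0.387, so that the class lay below the globulins in each of the stages. The superfamily of Psote06G0099600 also holds lipid-transfer proteins, and the globulin list holds seed maturation protein homologues. The ratios, with or without Psote06G0099600, may therefore not compare storage proteins alone. A globulin sum without those homologues was not calculated, so the fall of the ratio after Day 30 is not read as a change between storage protein classes.

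Of the 26 albumin and putative 2S albumin genes, 17 were measured, and 6 were higher and 8 lower at Day 45 than at Day 15, with 4 of these calls resting on values of 0 and 1 FPKM. Here and for the lists that follow, the shares of all measured genes are again 14.3% higher and 19.4% lower. The median change was -0.22 in log2(FPKM+1), against 0 over all measured genes. Of the 12 measured genes that are not among the 5 members, 3 were higher and 6 lower, with a median of -0.61. Apart from Psote04G0281900, the higher ones were the putative 2S albumin gene Psote05G0081300, listed at 0 at Day 15 and at 1, 2 and 4 FPKM later, and Psote06G0196300. Among the 12 genes of the 2S albumin and lipid-transfer superfamily, 9 were measured, 4 of them higher and 2 lower. The other storage protein lists of the study gave 7 higher and 8 lower of 18 measured globulin and legumin genes, and 11 higher and 5 lower of 29 measured transcription factor genes linked to storage proteins. Calls resting on values of 0 and 1 FPKM numbered 1 in the globulin and legumin list and 6 in the transcription factor list. The study compiled these lists in tables that also give stage values, and they are no independent evidence of direction.

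Genes typical of seeds were present in these pod samples, and several were higher in the same late stages as Psote07G0197200 and Psote04G0279400. Of 8 seed-tissue markers, 7 were measured, and 5 were higher and 1 lower at Day 45 than at Day 15, beside 14.3% and 19.4% of all measured genes. Of these calls, 1 rests on values of 0 and 1 FPKM, that of the ABI3 homologue. Every other marker also belongs to the globulin and legumin list. That list as a whole, these markers included, had 7 higher and 8 lower of 18 measured genes, so the markers do not stand for it. The summed level of the 8 markers was 205, 132, 185 and 267 FPKM over the 4 stages. The vicilin homologue Psote04G0317000, of the 7S globulin family, went from a listed 0 to 58 FPKM over the period, and the seed maturation protein homologue Psote04G0062600 from a listed 0 to 32 FPKM. The homologue of ABI3, a regulator of seed maturation, changed from a listed 0 in both earlier stages to 1 FPKM in both later ones. The 11S globulin gene Psote03G0078700 went the other way, from 148 to 12 FPKM, and Psote04G0240700 was listed at 0 in all stages. Genes of the purple pod were present as well, the anthocyanidin synthase homologue Psote01G0255900 going from 266 to 53 FPKM over the period and the pigment regulator PtMYB113a from 30 to 4 FPKM. The part of seed tissue in the levels of the 5 members was not tested.

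Likeness between stage patterns was measured as the distance between profiles of log2(FPKM+1) over the 4 stages after the mean of each gene was taken off, so that 0 means the same shape and size of change. Over genes with 5 FPKM or more in any stage, 46.0% of 17487 genes lay within a distance of 1 of Psote06G0099600 and 29.6% within 1 of Psote04G0341500, but only 1.84% of Psote06G0196400, 0.103% of Psote04G0279400 and 0.0972% of Psote07G0197200. The patterns of the last pair were thus approached by 18 and 17 other genes. Between the 5 members themselves the closest pair was Psote06G0196400 and Psote04G0341500, at 1.31, and the most distant was Psote07G0197200 and Psote06G0196400, at 6.64.

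The genes closest in pattern were looked for among 273 other genes that the study's tables name, with the same minimum level. The nearest to Psote06G0099600 was Psote09G0053400, a homologue of the transcription factor LBD41, at 12, 27, 28 and 26 FPKM and a distance of 0.057. It was followed by Psote03G0117000, a homologue of the acyl-activating enzyme AAE18, at 0.195. Nearest to Psote07G0197200 were Psote05G0180000, of the FT and TFL1 family of flowering regulators, at 1, 50, 84 and 143 FPKM (0.773), and the transporter homologue Psote04G0199900 (ABCC4/ABCC14), at 1, 19, 47 and 88 FPKM (0.896). Between Day 30 and Day 37, when Psote07G0197200 added 5 FPKM, these genes went from 50 to 84 FPKM and from 19 to 47 FPKM. Nearest to Psote04G0279400 were Psote04G0317500, a gene of the globulin and legumin list at 8 FPKM at Day 45 (0.638), and the methyltransferase homologue Psote01G0435000 (OMT1) at 20 FPKM (1.31). Nearest to Psote06G0196400 were the AAE16 homologue Psote03G0112600, at 5 FPKM at Day 15 and listed at 0 later (0.490), and Psote02G0319700 of the globulin and legumin list, at 24, 2, 2 and 2 FPKM (0.688). Nearest to Psote04G0341500 were the glycosyltransferase homologue Psote02G0200100 (UGT89C1), at 12 and 3 FPKM at Day 15 and Day 45 (0.172), and the receptor kinase homologue Psote03G0120000, at 20 and 7 FPKM (0.260). These distances rest on 4 values per gene. Genes that the tables do not name were closer still, 83 of them to Psote04G0341500, 8 to Psote06G0196400, 4 to Psote07G0197200 and 3 each to Psote06G0099600 and Psote04G0279400.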

How the data were processed

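Reads of 12 pod libraries were processed by the authors with fastp, HISAT2 2.0.5 and featureCounts 1.5.0-p3 (submitters' processing notes). The authors deposited a whole-number FPKM for every gene at every stage, and because FPKM is not normally whole, the deposited values were classed as a score. The 4 value columns name stages and not libraries, and 0 columns belong to other samples. From these values, differences of log2(FPKM+1) with a threshold of 1, ranks, percentiles, sums, shares, ratios and distances between patterns were calculated, with limits from 0.5 FPKM of rounding. With 1 value per gene and stage no SD, n or p could be given, and the limma fit foreseen for values per library was not made. Calculations ran in Python 3.11.15 with numpy 2.4.6 and pandas 2.3.3, and plots were drawn with matplotlib 3.10.9.

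The members and lists were chosen with earlier results of these data known. The genes to be named were the 5 members, measured genes of the 26 listed, marker genes and the 2 annotated genes nearest in pattern to each member. Psote04G0341600, Psote06G0196600, Psote04G0279500, Psote07G0196900, Psote07G0197300, Psote04G0341900, Psote03G0116100 and Psote03G0131200 were added after their values were seen. In the study's table, Psote04G0279400 stands under a PA2 entry with its own description left empty and was taken to share it; Psote07G0197200 likewise has no description of its own. The reference gene table supplied here is of another assembly, matched 0 of the gene IDs and was not used. Alternatives covered the pseudocount, 3 rescalings, the threshold, low values and leaving out the most abundant gene.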

Additional observations from a re-analysis of the deposited data

How the results depend on the processing

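No paired analysis was possible because the columns carry no replicate numbers, and leaving out single libraries was not possible for the same reason. Of 120 alternative values for the 20 changes of single members, 107 kept their side of the threshold and the other 13 fell short of it. The direction turned for 1 value, the change of Psote06G0099600 from Day 37 to Day 45, which was -0.096 as deposited and 0.0038 after quantile normalization, both far below the threshold. For Psote06G0099600 from Day 15 to Day 45 the change became 0.95 after scaling to equal sums, 0.97 with median ratio scaling and 0.99 after quantile normalization. From Day 15 to Day 30 the members that were higher or lower numbered 1 and 1 after quantile normalization and also with a threshold of 2. From Day 30 to Day 37 the single higher member, Psote04G0279400, was lost after scaling to equal sums, with median ratio scaling and with a threshold of 2 (0 in each). A threshold of 2 also left 1 higher member from Day 37 to Day 45 and 1 lower member from Day 15 to Day 45. Of the 26 listed genes, 4 were higher and 2 lower at Day 45 with a threshold of 2, and 4 higher and 3 lower among those at 5 FPKM or more in a stage, against 6 higher and 8 lower as reported, so that the balance of directions turned round. The ratio of the albumin to the globulin sum was 0.262 at Day 15 and 0.387 at Day 45 without Psote06G0099600, and 0.483 and 0.565 without the most abundant gene of each class. Rescaling to the same sum moved the median change of all genes from Day 15 to Day 30 by -0.11. Values below about 5 FPKM are limited by rounding.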

Other observations

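The study's table for the seed protein interval qSSP-1 on Chr03.1 names a pair of further genes of the 2S albumin and lipid-transfer superfamily that are not among the 26 listed albumin genes. Psote03G0116100 (21934607 to 21935745) had 73, 42, 36 and 18 FPKM in stage order, which is -1.96 in log2(FPKM+1) from first to last. Psote03G0131200 (25201302 to 25202031) had 71, 33, 33 and 31 FPKM, which is -1.17. At Day 15 both were above every gene of the 26 listed except Psote06G0099600. At Day 45 the latter was above every listed gene except Psote06G0099600 and Psote07G0197200, whereas the former could not be ranked against Psote03G0217000 at 17 FPKM because their rounding limits meet.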
